A study of Homo sapiens with 2 samples.

Results

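The cells described here were the 357 of 1850 LNCaP_FGC cells (19.3%) selected on their ETV1 count, each with 6 or more ETV1 unique molecular identifiers (UMIs, 1 per captured transcript molecule). They were compared with the 363 LNCaP_FGC cells that held 2 or 3 ETV1 UMIs, to see whether levels of other genes followed the amount of ETV1 transcript among cells that all contained it. The 277 cells with 4 or 5, the 243 cells with 1 and the 610 cells with 0 ETV1 UMIs were set beside them. The count at the limit was graded rather than separated, with 133 cells at 5 UMIs just outside and 84 cells at 6 UMIs just inside. ETV1 itself was used for the choice and is left out of every result.

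ETV1 encodes a transcription factor of the ETS family, which binds DNA at sites built around a GGAA core, and belongs to the PEA3 group together with ETV4 and ETV5. It is one of the ETS genes that rearrangements place under the control of other loci in prostate carcinoma. In LNCaP the rearrangement joins it to the MIPOL1 region, a locus active in prostate cells. Luminal prostate cells are identified by keratins 8 and 18 and by androgen-induced genes such as KLK3, which encodes prostate-specific antigen.

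LNCaP_FGC is the distributed form of LNCaP, a human prostate carcinoma line from a lymph node metastasis that was never cloned, and the study profiled it and the castration-resistant derivative LNCaP_C4-2B by single-cell RNA-Seq. Both lines were grown without any treatment in RPMI1640 medium supplemented with 10% fetal bovine serum and 1% penicillin/streptomycin. There was 1 library of 1850 cells for each line, so the groups compared are cells of 1 culture, no significance test was possible and every interval given covers counting error only. An ETV1 UMI was seen in 0 of 1850 LNCaP_C4-2B cells, a count that allows up to 0.162% of cells with an ETV1 UMI and does not limit cells expressing the gene. The libraries shared 0 cell barcodes. Batch labels also differ between the lines, whose strain and batch cannot be told apart, and LNCaP_C4-2B values are given only as a description.

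Cells with 6 or more ETV1 UMIs were also the more deeply sampled cells. Their UMIs per cell ran from 9956 to 50199 with a median of 21893, against 8988 to 38414 with a median of 17298 in cells with 2 or 3 ETV1 UMIs. Among them, 43 cells (12.04%) lay in the deepest 5% of the library, against 13 cells (3.58%) of the lower group. The median number of genes detected was 5261 against 4749. When each cell was thinned to 11452 UMIs, the order turned, with medians of 3706.5 and 3769 genes. Mitochondrial transcripts took 6.10% and 6.24% of UMIs and ribosomal protein transcripts 24.3% and 23.5%. All levels below are UMIs summed over the cells of a group and scaled to a common total (CPM), and 1 UMI was worth 0.124 CPM in the upper group and 0.152 CPM in the lower.

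The cell cycle calls differed as well. G1 cells made up 51.5% of the upper group (exact binomial 95% interval 46.2 to 56.8) and 41.9% of the lower (36.7 to 47.1). S cells were 21.01% and 26.2%, and G2M cells 27.5% and 32.0%. The share in G1 was between 41.6% and 42.8% in all 4 groups below 6 ETV1 UMIs, as the plot of depth and phase by ETV1 group shows. Because phase and depth both moved with the choice of cells, ratios were also computed within each phase and at matched depth.

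**Figure D1:**
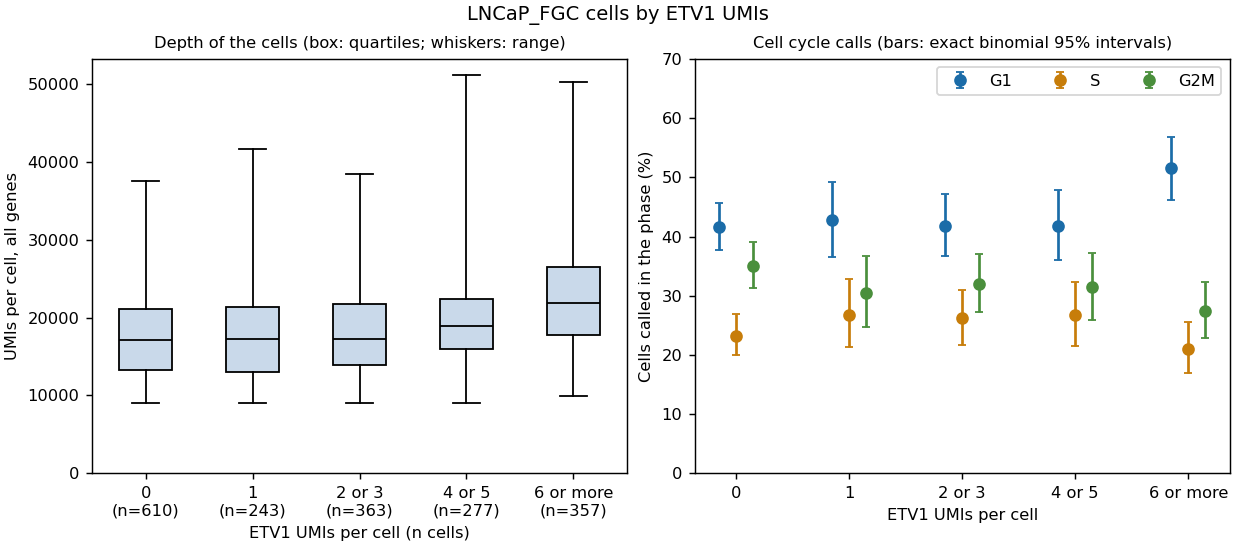
UMIs per cell (left, boxes show quartiles and whiskers the range) and the percent of cells called in G1, S and G2M (right, bars show exact binomial 95% intervals) for LNCaP_FGC cells grouped by ETV1 UMIs. The cells with 6 or more ETV1 UMIs had the highest median depth, 21893 UMIs, and the highest G1 share, 51.5%.

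Luminal epithelial markers of the line were present in both groups. Of 11 measured luminal epithelial markers, 0 were counted as higher or lower, which required a ratio at least 25% above or at least 20% below that of the median gene (the same fold in either direction). Measured means at least 10 CPM in the higher of the compared groups. Among all measured genes, 6.07% were counted as higher and 6.09% as lower. Over the 5 ETV1 groups, 4 of the 11 markers fell at every step and 1 rose, beside 7.85% and 3.39% of all measured genes. EPCAM, which fell, had a ratio of 0.837 (0.713 to 0.982) between the compared groups. KLK3 was 1.63-fold higher and is described below. KRT8 stood at 242 CPM in the upper and 245 CPM in the lower group, KRT18 at 227 and 239 CPM, and FOLH1, which encodes prostate-specific membrane antigen, at 240.4 and 249 CPM. Markers of other cell types were near absent. None of the 8 fibroblast, 9 immune, 7 endothelial and erythroid or 8 non-prostate epithelial markers reached 10 CPM, and their summed levels were 11.2, 0.870, 4.72 and 5.84 CPM in the upper group against 15.3, 1.67, 4.71 and 7.60 CPM in the lower. Of the immune markers, 7 of 9 had no UMI in the upper group.

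Across 8870 measured genes, the median gene had a ratio of 0.970 between the upper and lower groups. Relative to it, 538 genes (6.07%) were at least 25% higher and 540 genes (6.09%) at least 20% lower in cells with 6 or more ETV1 UMIs. At 1.5-fold the counts were 96 genes (1.08%) and 108 genes (1.22%). For 401 of the 538 and 384 of the 540 genes, the 95% counting interval of the ratio also left out the median gene's ratio. Over the 5 ETV1 groups from 0 to 6 or more, 301 genes (3.39%) were higher at every step and 696 genes (7.85%) lower at every step.

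RIPOR2, which encodes an inhibitor of the small GTPase RhoA, had the highest ratio. Its level was 4.28, 19.5, 48.5, 80.9 and 123 CPM in cells with 0, 1, 2 or 3, 4 or 5 and 6 or more ETV1 UMIs. The upper group was thus 2.53-fold above the cells with 2 or 3 UMIs (95% interval 2.23 to 2.88). In single cells of the upper group the level ran from 0 to 722 CPM with a median of 86.8 CPM, and in the lower group from 0 to 583 CPM with a median of 0. The groups therefore overlapped over most of their range. At equal depth, 61.4% of upper and 30.6% of lower cells held a RIPOR2 UMI.

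The other genes among the 12 highest ratios fell into several kinds of protein, with no kind named as enriched. THBS1 (thrombospondin 1, a secreted matrix glycoprotein) stood at 47.9 CPM in the upper and 19.1 CPM in the lower group, 2.50-fold (2.04 to 3.08). FN1 (fibronectin, a major matrix protein) stood at 206 and 106 CPM, 1.93-fold (1.77 to 2.11). EPHA7, an ephrin receptor tyrosine kinase gene, was 2.22-fold higher (1.90 to 2.61). PKIB, which encodes an inhibitor of protein kinase A, was 1.89-fold higher (1.74 to 2.07) at 213 CPM against 113 CPM. All 12 lay in the same direction in G1, S and G2M cells, since the rule for naming them required it.

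Genes of steroid metabolism and ion transport were also among the 12. UGT2B17, which encodes an enzyme that glucuronidates and so inactivates androgens, was 2.34-fold higher (1.84 to 2.99) at 33.4 CPM against 14.3 CPM. It has a close paralog, UGT2B15, so its reads may be divided between the genes. TRPM8, an androgen-induced cold-sensing cation channel gene, was 1.84-fold higher (1.46 to 2.33). GDPD1 (a glycerophosphodiester phosphodiesterase), CRYBG1, CADPS2 (a regulator of dense-core vesicle release) and the gene listed as AL591069.1 ranged from 1.83-fold (AL591069.1) to 1.94-fold (GDPD1). In thinned cells the median cell of the upper group held UMIs of 5 of the 12 genes and the median cell of the lower group UMIs of 2. The 12 genes were chosen for high ratios between these same cells, so this difference is not independent support.

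At the low end, HES6, a bHLH factor gene linked to Notch signaling, stood at 132, 106, 62.9, 40.9 and 24.7 CPM across the 5 ETV1 groups. The upper group was 2.54-fold lower than the cells with 2 or 3 ETV1 UMIs (2.14 to 3.03). MAP1B, a microtubule-associated protein gene, fell from 485 CPM in cells with 0 ETV1 UMIs to 284 CPM and 129 CPM in the lower and upper groups, 2.20-fold lower between the latter (2.03 to 2.37). In single cells MAP1B had a median of 60.7 CPM in the upper and 170 CPM in the lower group, and its range, 0 to 1792 CPM and 0 to 3111 CPM, overlapped almost entirely. TFPI, the gene of an inhibitor of tissue factor coagulation, was 1.89-fold lower (1.75 to 2.05) and MAF, a bZIP factor gene, 1.84-fold (1.67 to 2.03).

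The remaining 8 of the 12 lowest ratios were of lesser level. SLC44A4, which encodes a choline-transporter-like surface protein, stood at 8.58 CPM in the upper and 22.03 CPM in the lower group, 2.57-fold lower (1.92 to 3.47). IFITM2, an interferon-induced membrane protein gene, was 2.55-fold lower (2.06 to 3.16), and its near-identical paralogs leave its counting uncertain. PTGFR, the prostaglandin F receptor gene, and MDK, the gene of the growth factor midkine, were both 2.35-fold lower. QSER1, ZNF385B, BPHL and RMRP, the RNA of the mitochondrial RNA-processing ribonuclease, lay between 1.90-fold (RMRP) and 2.40-fold (QSER1) lower.

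**Figure D2:**
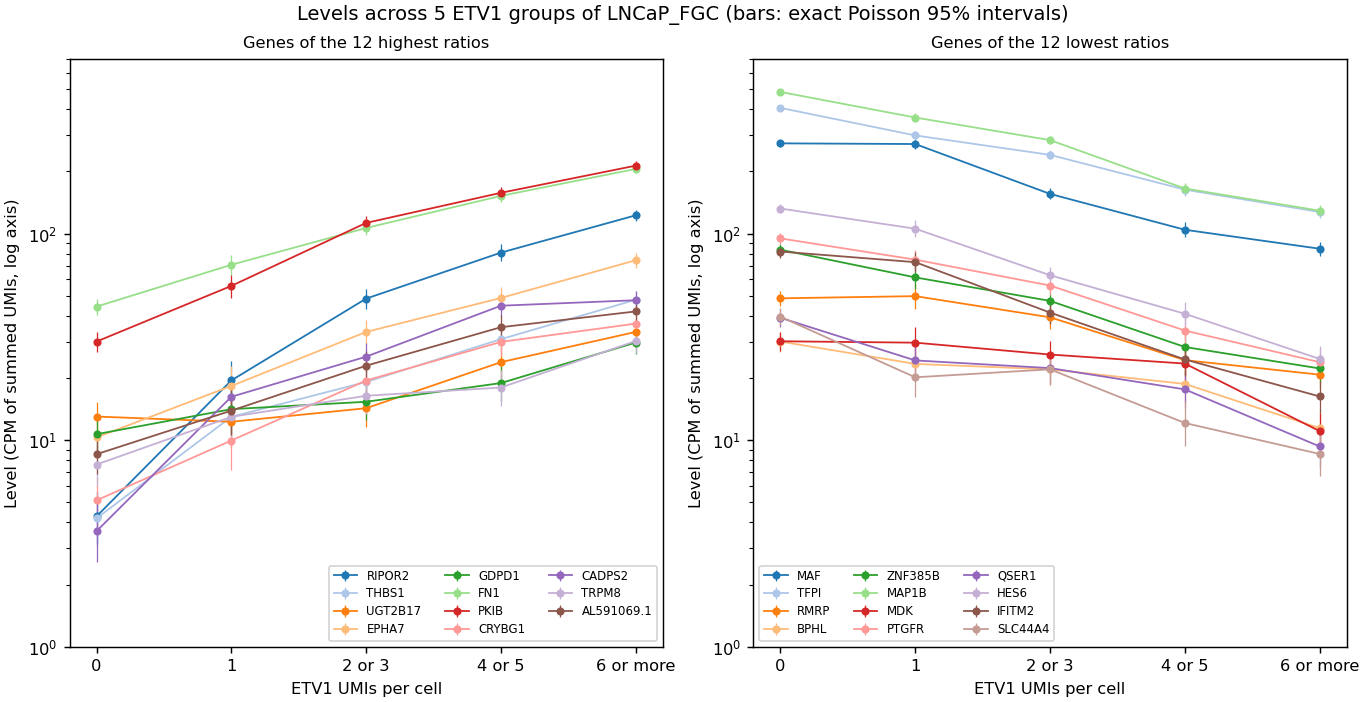
Level in CPM (log axis) of the genes with the 12 highest (left) and 12 lowest (right) ratios, in LNCaP_FGC cells with 0, 1, 2 or 3, 4 or 5 and 6 or more ETV1 UMIs, with exact Poisson 95% intervals, 1 of the highest not being drawn. RIPOR2 climbed from 4.28 to 123 CPM and MAP1B descended from 485 to 129 CPM, in both cases with the cells of 4 or 5 ETV1 UMIs between their neighbors.

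ETS factors of this kind bind GGAA cores, so the RefSeq promoter windows of these genes (250 bases before to 50 bases after a start, GRCh38.p14) were searched on both strands for CCGGAAG and for CAGGAAG. Windows were held for 8 of the 12 highest and 9 of the 12 lowest genes. CCGGAAG was in a window of 1 gene of the highest (PKIB) and 2 of the lowest (HES6 and QSER1), and CAGGAAG in 1 (THBS1) and 2 (TFPI and MAF). Of all 27305 genes with a window, 12.2% had CCGGAAG and 15.2% CAGGAAG in at least 1 of their windows. The windows of the first 4 genes named are shown 5′ to 3′ along the gene's strand because they carry the letters at both ends of the ratio scale, with the match in capitals. A match on the opposite strand reads CTTCCGG or CTTCCTG. These are descriptions of letters, not of binding.
PKIB, chr6:122471671-122471970, plus strand: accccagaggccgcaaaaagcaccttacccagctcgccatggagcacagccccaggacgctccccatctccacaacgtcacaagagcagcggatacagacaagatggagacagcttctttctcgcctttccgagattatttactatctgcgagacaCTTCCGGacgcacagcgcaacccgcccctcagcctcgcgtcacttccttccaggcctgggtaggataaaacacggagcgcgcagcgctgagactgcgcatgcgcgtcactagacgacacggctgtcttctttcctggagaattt
THBS1, chr15:39580829-39581128, plus strand: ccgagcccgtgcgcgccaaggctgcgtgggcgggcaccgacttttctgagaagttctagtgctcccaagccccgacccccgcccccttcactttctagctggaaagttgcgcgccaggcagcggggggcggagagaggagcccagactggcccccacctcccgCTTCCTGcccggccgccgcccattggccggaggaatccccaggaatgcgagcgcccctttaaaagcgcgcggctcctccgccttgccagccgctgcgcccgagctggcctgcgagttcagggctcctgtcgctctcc
HES6, chr2:238239989-238240288, minus strand: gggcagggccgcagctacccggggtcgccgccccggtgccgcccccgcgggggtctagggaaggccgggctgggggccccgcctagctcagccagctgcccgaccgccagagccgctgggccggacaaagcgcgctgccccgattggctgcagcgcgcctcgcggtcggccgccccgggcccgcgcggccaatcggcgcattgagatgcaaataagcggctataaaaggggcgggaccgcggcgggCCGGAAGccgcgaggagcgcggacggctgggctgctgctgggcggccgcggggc
QSER1, chr11:32892561-32892860, plus strand: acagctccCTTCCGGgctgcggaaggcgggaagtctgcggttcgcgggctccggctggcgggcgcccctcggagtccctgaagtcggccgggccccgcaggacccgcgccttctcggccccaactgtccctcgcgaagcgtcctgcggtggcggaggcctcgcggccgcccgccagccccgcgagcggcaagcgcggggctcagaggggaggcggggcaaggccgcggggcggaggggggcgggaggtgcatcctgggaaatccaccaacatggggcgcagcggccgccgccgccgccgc
In HES6 the match began 4 bases before the start, in THBS1 87, in PKIB 94 and in QSER1 242 bases before it.

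KLK3 and other genes that separate ETV1-negative from ETV1-positive cells of this line were followed as a list of 10. The list was chosen on these same cells, so its direction is not independent evidence. All 10 passed the 25% limit in cells with 6 or more against cells with 2 or 3 ETV1 UMIs, and 9 of the 10 at least 1.5-fold, against 6.07% and 1.08% of all measured genes. All 10 were higher at every step over the 5 groups. KLK3 (chr19:50854915-50860764) stood at 145, 455, 878, 1215 and 1434 CPM, 1.63-fold between the cells with 2 or 3 and with 6 or more UMIs (1.58 to 1.69). In single cells KLK3 had a median of 1388 CPM in the upper group, range 0 to 4487 CPM, and of 744 CPM in the lower, range 0 to 5160.5 CPM. CAMK2N1, an inhibitor of CaM kinase II, was 1.51-fold higher (1.43 to 1.59), and ACPP, which encodes prostatic acid phosphatase, 1.41-fold (1.24 to 1.61). SYT4 (a synaptotagmin of vesicle fusion), SLC22A3 (an organic cation transporter) and H2AFJ (a histone H2A variant) ranged from 1.78-fold (H2AFJ) to 1.89-fold (SYT4).

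The step from 0 to 2 or 3 ETV1 UMIs was larger for each of these 10 genes than the step from 2 or 3 to 6 or more. KLK3 was 6.04-fold higher over the first step and H2AFJ 6.37-fold, against 1.63-fold and 1.78-fold over the second. RIPOR2 was 11.3-fold higher over the first and 2.53-fold over the second. UGT2B17 showed the other shape, with 13.01, 12.3 and 14.3 CPM in cells with 0, 1 and 2 or 3 UMIs and 23.9 and 33.4 CPM above them. The steps share the cells with 2 or 3 UMIs, so their ratios are not independent.

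Against the nearer group with 4 or 5 ETV1 UMIs, the differences were smaller. The ratio was 1.18 for KLK3 (1.15 to 1.22), 1.16 for ACPP (1.02 to 1.32), 1.52 for RIPOR2 (1.35 to 1.70), 1.55 for THBS1 (1.29 to 1.87) and 1.68 for TRPM8 (1.32 to 2.15). For CADPS2 the ratio was 1.06 with an interval of 0.903 to 1.253, which covers no difference. Among all 8870 measured genes, the interval lay above 1 for 400 and below 1 for 692. Of the 18 genes among the 12 highest or the 10 separating genes, it lay above 1 for 16. Of the 12 lowest, it lay below 1 for 10, and held 1 for SLC44A4 and RMRP. These genes were chosen with the same upper cells, so the counts are not independent support.

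Within the 357 cells, 156 held 6 or 7, 102 held 8 or 9 and 99 held 10 or more ETV1 UMIs, with median depths of 19880.5, 21920.5 and 24740 UMIs. RIPOR2 rose over these groups in level from 92.0 to 129 and 157 CPM, a ratio of 1.71 between the last and first (1.47 to 1.99). UGT2B17 had a ratio of 1.65 (1.23 to 2.21), CRYBG1 1.501 (1.13 to 2.00) and FN1 1.37 (1.22 to 1.54). Of the UGT2B17 UMIs of the 357 cells, 1 cell held 8.92%. KLK3 stood at 1373, 1472 and 1480 CPM, a ratio of 1.08 (1.03 to 1.13). ACPP was lower in the cells with most ETV1, 88.9, 77.4 and 68.8 CPM, a ratio of 0.774 (0.637 to 0.939), and CAMK2N1 had a ratio of 0.922 (0.854 to 0.995). Of the 18 genes, the interval lay above 1 for 5, lay below 1 for 2 and held 1 for 11. Among all 8870 measured genes the same counts were 360, 317 and 8193. Of the 12 lowest genes, the interval held 1 for 10, and lay below 1 for HES6 (ratio 0.706) and RMRP (ratio 0.587). MKI67, a proliferation marker, had a ratio of 1.38 (1.19 to 1.59) between the same cells, in which G2M calls were 33.3% against 23.7%. The part of the cell cycle in these ratios was not tested.

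**Figure D3:**
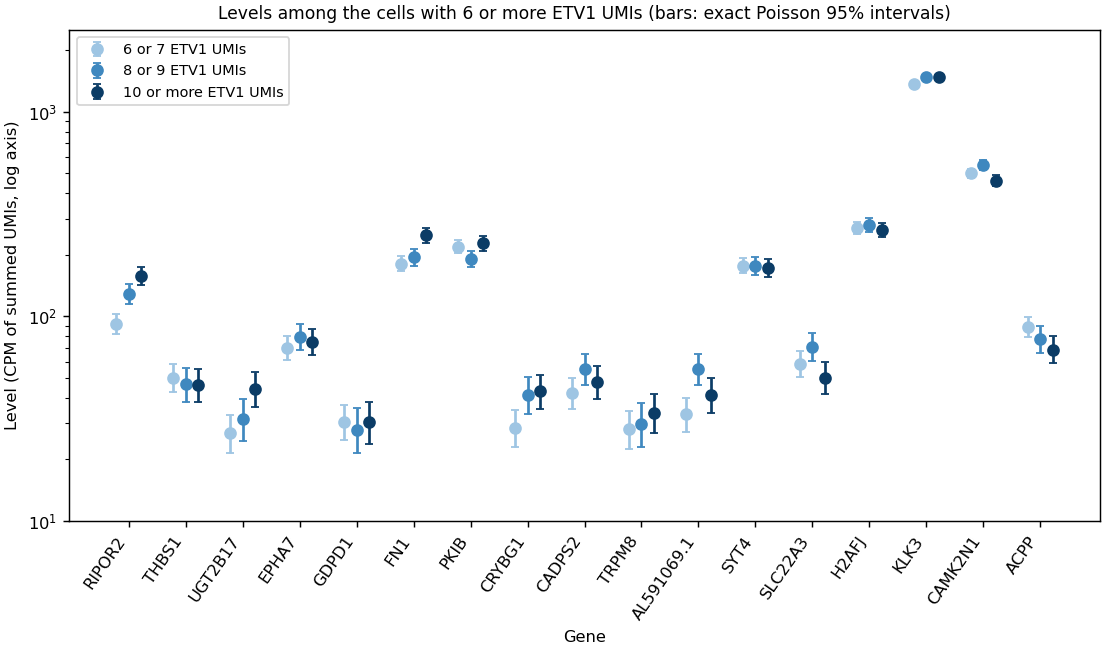
Level in CPM (log axis) of 17 of the 18 genes in the cells with 6 or 7, 8 or 9 and 10 or more ETV1 UMIs, with exact Poisson 95% intervals. RIPOR2 (92.0 to 157 CPM), UGT2B17, CRYBG1 and FN1 were higher with more ETV1, while KLK3 (1373 to 1480 CPM) differed little and ACPP (88.9 to 68.8 CPM) was lower.

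When the lower group was weighted to the depth of the upper, RIPOR2 had a ratio of 3.01, KLK3 1.86 and MAP1B 0.419. Among cells with 2 or 3 ETV1 UMIs the deeper cells hold less ETV1 per UMI, so depth and the share of ETV1 cannot be told apart in this weighting. KLK3 was 1.52-fold higher in G1 cells, 1.56-fold in S cells and 1.76-fold in G2M cells. Of the 10 separating genes, SYT4 (0.993 in S cells) and CAMK2N1 (0.987 in G2M cells) had a ratio below 1 in a phase.

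RALYL, an RNA-binding protein gene, was far lower in cells with 6 or more ETV1 UMIs. RALYL was a member of a list of genes known to vary among these cells and was singled out for this comparison after its values were seen. It stood at 64.8, 65.8, 40.0, 16.0 and 4.23 CPM across the 5 ETV1 groups. At equal depth, 2.57% of cells with 6 or more ETV1 UMIs held a RALYL UMI (exact binomial 95% interval 1.18 to 4.83) against 26.5% of cells with 2 or 3 (21.7 to 31.7). LNCaP_C4-2B had 5 RALYL UMIs in all. ANKRD29, also named after its values were seen, followed the same order from 1 ETV1 UMI upward, with 2.57% of upper and 25.2% of lower cells.

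Cells with and without a RALYL UMI differed inside each group. In the lower group KLK3 stood at 252 CPM in the 112 cells with RALYL and at 1207 CPM in the 251 without, and CAMK2N1 at 115 and 446 CPM. In the upper group, 17 cells held RALYL, and KLK3 stood at 760 CPM in them and at 1472 CPM in the other 340. The RALYL-holding cells of the lower group were the deeper ones, with medians of 19762.5 and 16274 UMIs.

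With the RALYL-holding cells left out of both groups, 340 against 251 cells, the ratios of all 18 genes became smaller. KLK3 was then 1.22-fold higher (1.18 to 1.26), CAMK2N1 1.15-fold (1.09 to 1.22) and SLC22A3 1.26-fold (1.06 to 1.48). ACPP had a ratio of 1.05 with an interval of 0.915 to 1.20, which covers no difference. RIPOR2 stayed 1.83-fold higher (1.61 to 2.10), THBS1 1.94-fold (1.56 to 2.42), UGT2B17 1.92-fold (1.48 to 2.52) and EPHA7 1.69-fold (1.44 to 2.00). Of the 12 highest genes 12 still lay at least 25% above the median gene, and of the 12 lowest 11 at least 20% below it. Of the 10 separating genes 8 did, and of the 538 higher and 540 lower genes 321 and 328 did. ZNF385B was the other of the 12 lowest, with a ratio of 0.812 (0.633 to 1.04), while SLC44A4 and HES6 hardly moved, at 2.50-fold and 2.26-fold lower. The 12 highest and 12 lowest were chosen for extreme ratios in a comparison that holds these same cells. Their passing here is therefore not independent support.

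**Figure D4:**
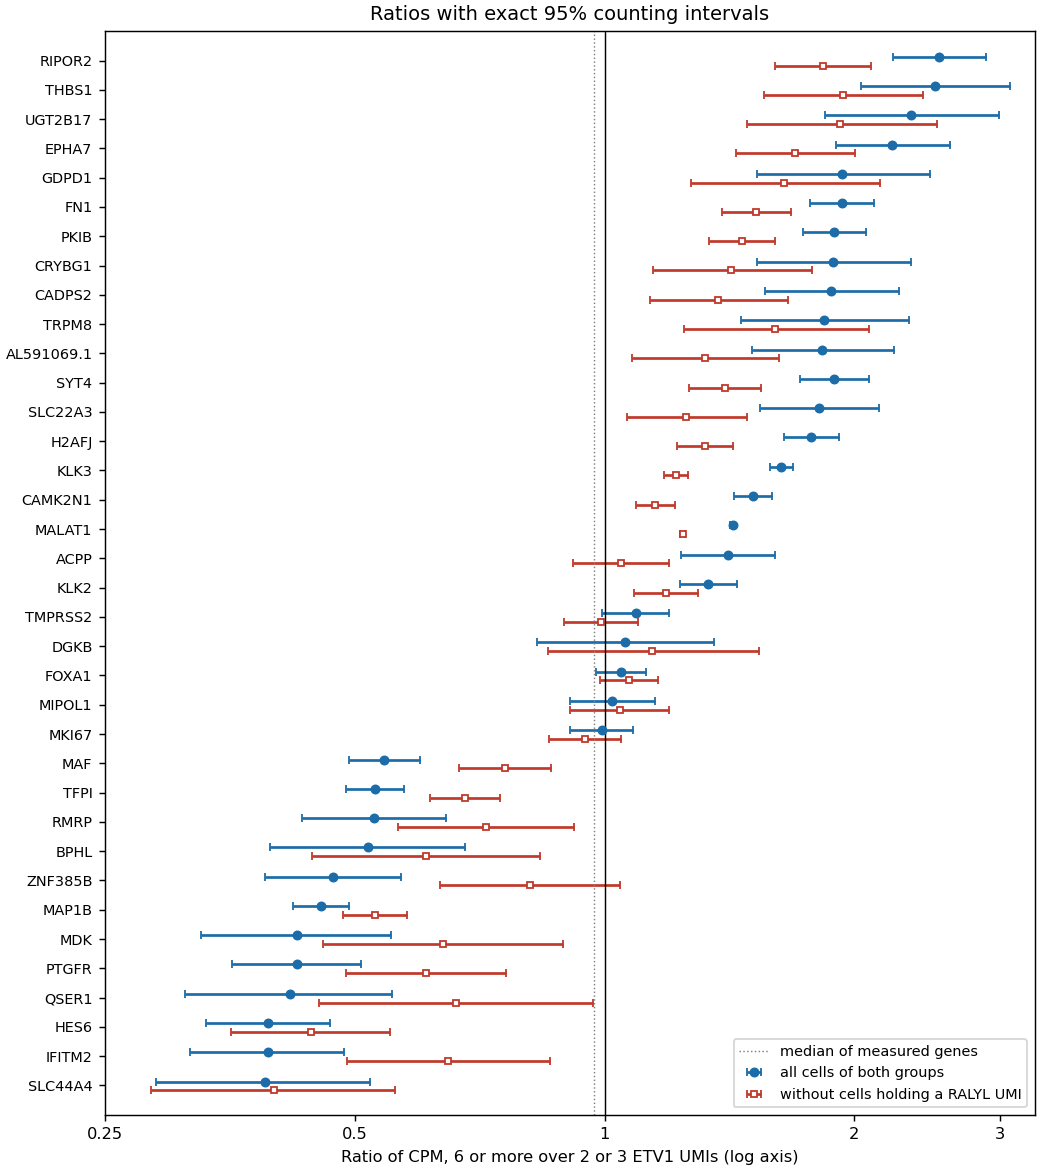
Ratio of CPM (log axis) between LNCaP_FGC cells with 6 or more and with 2 or 3 ETV1 UMIs for named genes, with exact 95% counting intervals, in all cells (filled) and without cells holding a RALYL UMI (open). KLK3 moved from 1.63 to 1.22 and ACPP from 1.41 to 1.05, whereas RIPOR2 was 1.83 and THBS1 1.94 without those cells.

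FOXA1, the gene of a pioneer factor of luminal prostate transcription, was level. It stood at 231 CPM in the upper and 221 CPM in the lower group, a ratio of 1.05 (0.977 to 1.12). MIPOL1, the gene at the rearrangement, had a ratio of 1.02 (0.910 to 1.15) and DGKB, the neighbor of ETV1 on chromosome 7, 1.06 (0.828 to 1.36), so a difference of up to 1.36-fold in DGKB lay within counting error. GATA2, a pioneer factor gene, was 1.28-fold higher (1.17 to 1.40) and NCOA3, a coactivator gene, 1.27-fold (1.026 to 1.56). Of 10 measured steroid receptors and pioneer factors, 3 were higher, GRHL2 being the third, and 0 lower, beside 6.07% and 6.09% of all measured genes. Without cells holding RALYL, 0 of the 3 passed the limit, with ratios of 1.18 for GATA2, 1.17 for NCOA3 (0.922 to 1.48) and 1.20 for GRHL2. Of 8 measured rearrangement partners and neighbors of ETV1, AGR2 (1.33-fold) and TSPAN13 (1.31-fold) were higher, and 0 lower. Neither passed the limit without cells holding RALYL, where the ratio was 1.04 for AGR2 (0.934 to 1.16) and 1.16 for TSPAN13. In the lower group 1 cell held 13.5% of the AGR2 UMIs.

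Of 34 measured androgen-induced genes, 6 were higher and 3 (MAF, GNMT and AZGP1) lower, with a median log2 ratio of 0.12 relative to the median gene, and 6.07% and 6.09% of all measured genes were higher and lower. Without cells holding RALYL, 3 of the 6 and 3 of the 3 still passed, ACPP being among those that did not. Besides TRPM8 and ACPP, HPGD (a prostaglandin-inactivating dehydrogenase) was 1.65-fold higher, and TMPRSS2, the surface protease gene, had a ratio of 1.09 (0.994 to 1.20), short of the limit. GNMT, a glycine methyltransferase gene, stood lower with MAF, at 16.4 CPM against 26.0 CPM. Among 3 measured kallikreins, KLK3 and KLK2 were higher, KLK2 at 201 and 151 CPM (1.33-fold, 1.23 to 1.45) but with a ratio of 0.869 in S cells and 1.19 without cells holding RALYL, and KLK4 had a ratio of 0.899. KLK2 and KLK3 are close in sequence, which leaves a division of reads between them uncertain. Of 8 measured androgen-repressed or androgen-inactivating genes, 3 were higher (UGT2B17, PEG3 and BMPR1B) and 2 lower (BCHE and UGT2B11), of which BCHE had a ratio of 1.04 without cells holding RALYL. Of 12 measured genes of prostate cancer surface targets, TRPM8, KLK2 and DLL3 were higher and SLC44A4, TMEFF2 and NECTIN1 lower, of which TRPM8, DLL3 and SLC44A4 still passed without those cells.

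Most matrix, mesenchymal and neuronal genes of the lists were not measured. Among all measured genes, 6.07% were higher and 6.09% lower. FN1, EPHA7 and SYT4 are also separating genes, a list chosen on these same cells. Of 15 mesenchymal genes 2 were measured and both were higher, FN1 and TWIST1, a bHLH factor gene at 57.8 CPM against 30.1 CPM (1.92-fold, 1.62 to 2.28). The other 13 did not reach 10 CPM, and 7 of them had no UMI in the upper group. A single cell of the lower group held 11.6% of its TWIST1 UMIs. Of 12 measured matrix protease, integrin and invasion genes, 3 were higher, among them ADAMTS1, a secreted metalloprotease gene (1.34-fold, 1.27 to 1.42), and ITGA6 (1.28-fold, 1.02 to 1.61), and MMP16 was lower. ITGA6 and EGFR were also the 2 higher of 3 measured basal epithelial markers, while 8 of the 11 listed did not reach 10 CPM. Without cells holding RALYL, ADAMTS1 (1.18), ITGA6 (1.16, 0.903 to 1.51) and EGFR (1.08, 0.873 to 1.35) did not pass the limit. Of 27 neuroendocrine and neuronal genes, 22 did not reach 10 CPM and 13 had no UMI in the upper group. EPHA7, SYT4, MAP2 (a dendritic microtubule protein gene, 1.22-fold) and DLL3 (a Notch ligand gene, 1.27-fold) were higher, and TUBB3, the neuronal beta-tubulin gene, was lower at 9.94 CPM against 16.0 CPM. MAP2 had a ratio of 1.20 without cells holding RALYL and did not pass.

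SPRY1, a feedback inhibitor gene of the ERK pathway, was 1.48-fold higher (1.21 to 1.82), and DUSP4, an ERK phosphatase gene, was the other of 5 measured ERK pathway genes that was higher (1.27-fold). EGFR, which encodes the epidermal growth factor receptor, was 1.31-fold higher (1.08 to 1.60), and BMPR1B and BMPR2 were also higher among 12 measured growth factor receptors and ligands, beside 6.07% of all measured genes. Without cells holding RALYL, SPRY1 had a ratio of 1.19 (0.956 to 1.48), DUSP4 1.10, EGFR 1.08 and BMPR2 1.17, none past the limit. EGFR also had a ratio of 1.08 over cells with 4 or 5 ETV1 UMIs. Of 11 measured Notch genes, JAG1 (1.26-fold) and DLL3 were higher and HES6 lower, and without cells holding RALYL JAG1 had a ratio of 1.11 and did not pass. Of 11 measured ETS genes other than ETV1, ETV3 was higher (1.34-fold) and 0 were lower, and SPDEF, the prostate ETS factor gene, had a ratio of 1.08 (0.978 to 1.20). Of 12 measured WNT genes, 0 were higher and FZD5, a WNT receptor gene, was lower, but had a ratio of 0.888 without those cells.

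Beside the counts of proliferation and DNA repair genes stand 6.07% higher and 6.09% lower among all measured genes. Of 29 measured G1/S and DNA replication genes, 0 were higher and 4 lower (TK1, ORC1, RFC5 and GINS4), with a median log2 ratio of -0.15 relative to the median gene. TK1, the thymidine kinase gene, stood at 41.0 CPM in the upper and 60.3 CPM in the lower group. Of 25 measured mitotic genes outside the phase lists, PIF1 was higher and PLK4, CCNA2, CCNB1 and CEP55 lower (median -0.17), with CCNB1, the cyclin B1 gene, at 202 and 264 CPM. Of 32 measured DNA repair genes, 7 were lower (median -0.12), among them MRE11 at 28.3 against 38.7 CPM and MSH6, a mismatch repair gene, at 37.2 against 49.8 CPM, and 1 higher, the helicase gene WRN (1.23-fold). Without cells holding RALYL, 3 of the 4 replication, 4 of the 4 mitotic and 6 of the 7 repair genes still passed as lower, and WRN (1.20) did not as higher. MKI67 had a ratio of 0.992 (0.909 to 1.08). Of 14 measured cyclin-dependent kinase inhibitors and quiescence genes, RB1 and RBL2 (1.26-fold each) and BTG1 were higher, and CDKN2C and CDKN2A lower, of which CDKN2C alone passed without cells holding RALYL. HIST1H3B was the 1 higher of 12 measured replication-dependent histone genes. The part of the phase shares in these values was not tested.

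Metabolic and stress lists were mostly level. Their counts stand beside 6.07% higher and 6.09% lower among all measured genes. Of 25 glycolysis and hypoxia, 18 integrated stress response and 30 secretory and vesicle traffic genes measured, 0 were higher or lower. Of 22 cholesterol synthesis genes, INSIG1 was the 1 lower (40.9 against 56.1 CPM). AMACR, an alpha-methylacyl-CoA racemase used as a prostate carcinoma marker, was 1.57-fold higher (1.41 to 1.74), the 1 higher of 21 fatty acid genes, and ECI2 the 1 lower. HSP90AA1, a heat shock chaperone gene, stood at 827 CPM against 1167 CPM, and HSPA1B was also lower among 17 heat shock and immediate early genes. Of 20 unfolded protein response genes CREB3L2 and EDEM1 were lower. Of 4 measured members of the metallothionein list (MT1G, MT1X, MT2A and MTF1), 0 were higher or lower over all cells. The ratios of MT1G, MT1X and MT2A lay above 1 in S cells and below 1 in G2M cells, as given under other observations. Of 11 measured interferon-induced and MHC class I genes, IFITM2 and IFITM3 were lower and 0 were higher. SAT1, the gene of the polyamine-acetylating enzyme, was the 1 lower of 10 polyamine genes, at 390 CPM against 529 CPM. Mitochondrially encoded genes held 0 of 13 past the limit. Without cells holding RALYL, ECI2 (ratio 0.801), HSP90AA1 (0.827), HSPA1B (0.787), EDEM1 (0.817) and IFITM3 (0.835) did not pass, while AMACR, INSIG1, CREB3L2, IFITM2 and SAT1 did.

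Several nuclear long noncoding RNAs were higher in the cells with 6 or more ETV1 UMIs. MALAT1 stood at 15894, 15866, 20233, 22971 and 28882 CPM across the 5 ETV1 groups, 1.43-fold between the compared groups (1.42 to 1.44), and at 1.24-fold without cells holding RALYL. NEAT1, the scaffold RNA of paraspeckles, stood at 2975 CPM against 2044 CPM (1.46-fold, 1.42 to 1.49). The prostate cancer associated PCAT1 was also 1.46-fold higher, at 46.7 CPM against 31.9 CPM, but had a ratio of 1.02 in S cells. Of 13 measured nuclear long noncoding RNAs, 4 were higher, PCA3 being the fourth, and 0 lower, beside 6.07% and 6.09% of all measured genes. All 4 still passed without cells holding RALYL. Mitochondrial transcripts, which lie outside the nucleus, took 6.10% and 6.24% of UMIs in the same cells. The cause of the long noncoding RNA levels was not tested.

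**Figure D5:**
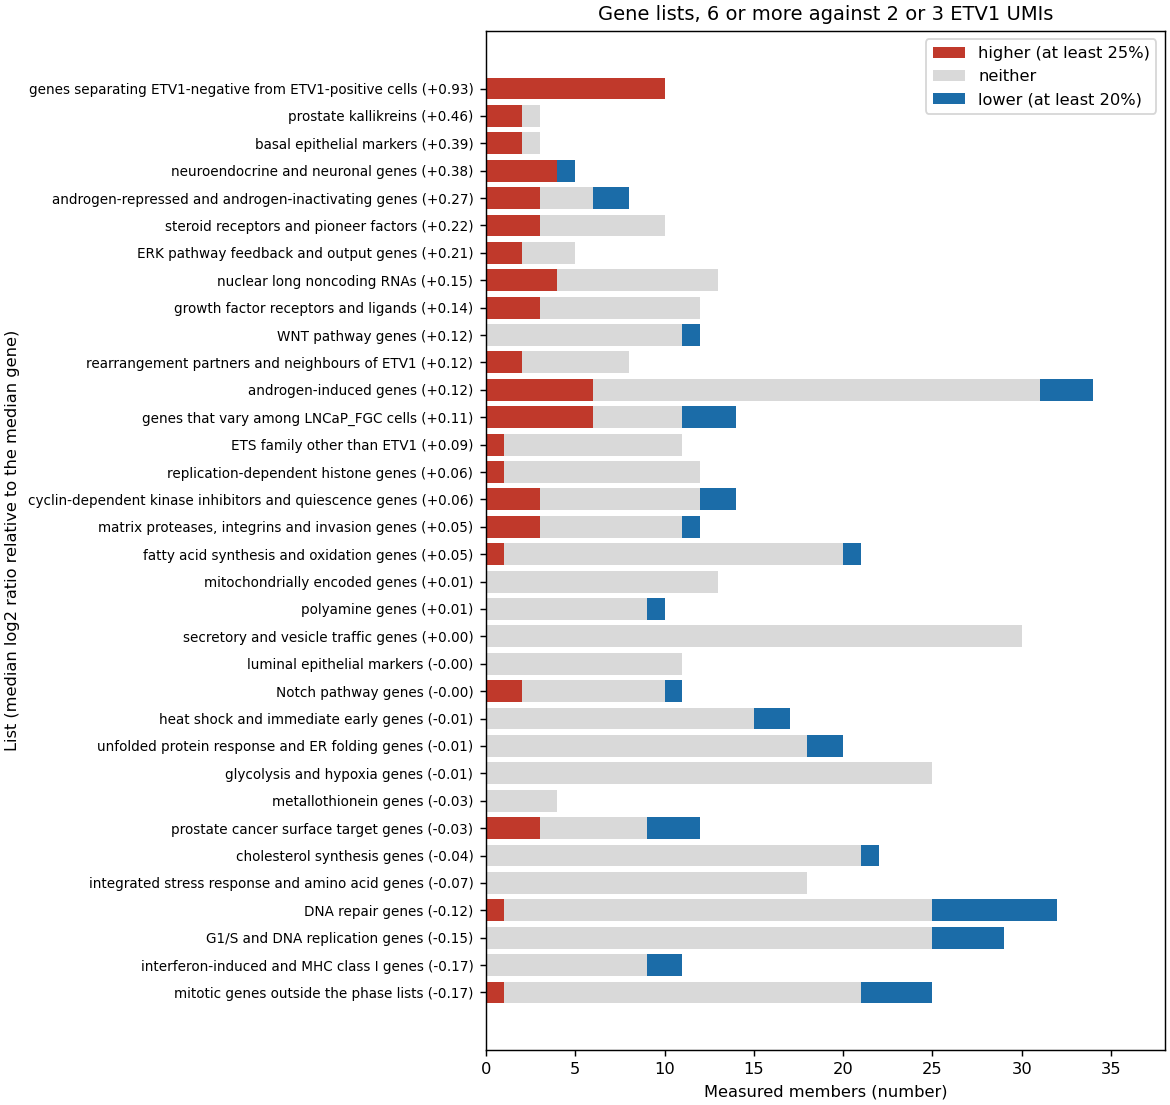
Number of measured members of each gene list at least 25% higher (red), at least 20% lower (blue) or neither (grey) in cells with 6 or more against 2 or 3 ETV1 UMIs, lists ordered by the median log2 ratio relative to the median gene, given in brackets. Lists with fewer than 3 measured members are not drawn. All 10 separating genes were higher, and 7 of 32 DNA repair genes were lower, beside 6.07% higher and 6.09% lower among all measured genes.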

How the data were processed

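Single-cell RNA-Seq (10x Genomics 3′ chemistry) was performed on untreated LNCaP_FGC and LNCaP_C4-2B, 1 library each. Per the submitters' processing notes, Cell Ranger 6.0, GRCh38 and Seurat 5.011 were used. The authors filtered cells by genes, reads, hemoglobin, ribosomal and mitochondrial percent and doublet score, drew equal numbers of cells and thinned counts to a common mean, so that the deposited matrices hold UMI counts with a mean of 19000 per cell. The depth that preceded this thinning is not known here, and equal means say nothing of RNA content.

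UMIs were summed over cells of an ETV1 group and scaled to CPM. Ratios have exact conditional 95% intervals, levels exact Poisson and shares exact binomial (Clopper-Pearson) intervals, all for counting error only. No test was run, since 1 library gives no replicates. A gene was kept if the higher group reached 10 CPM, and counted as higher or lower if its ratio lay at least 25% above or 20% below that of the median gene. Phases were called with CellCycleScoring (Seurat 5.3.0, R 4.3.3, 43 S and 54 G2M genes). Where equal depth is stated, cells were thinned to 11452 UMIs, the percentile 10, which left out 7 upper and 46 lower cells. Scripts were tested on simulated data. Doublets were not called again.

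The text names the genes with the 12 highest and 12 lowest ratios, given at least 20 CPM, one direction in all phases and no cell holding over 10% of UMIs (ETV1, ribosomal protein, mitochondrial and Y-linked genes left out), the 10 separating genes, 9 genes of prior interest, at most 2 members from either end of each list, and 6 genes rising and 6 falling at every step. Some genes that the rule names are not reported here. List members named beyond this rule were chosen after their values were seen. The cells, the 39 gene lists and the rule were chosen with earlier results of these data known. Positions come from GENCODE 44, directly or by RefSeq synonyms. Alternatives changed the ETV1 limits, depth, phase, weighting, totals and filters, and leaving out RALYL-holding cells was added after seeing the data, as was the interval rule.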

Additional observations from a re-analysis of the deposited data

How the results depend on the processing

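With 1 library per line, there was no replicate to leave out, and all groups are cells of 1 culture. No paired analysis was possible because each line had 1 library and the labels give no replicate numbers. ETV1 dropout at this depth puts cells of like ETV1 level in different groups, and what part of any ratio this takes was not tested. For the 12 highest and 12 lowest genes, 248 of 336 values under 14 alternatives of cells or scaling moved by less than their counting interval, 88 moved by more and 0 turned direction. The rule for naming these genes required the same direction in G1, S and G2M cells, so in those settings no turn was possible. Most other alternatives reuse cells of the same groups, so the absence of turns is not independent support. For all 147 named genes, 1627 of 2057 values held, 414 moved and 16 turned, and for 34 lists, 537 of 544 medians held.

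The counts of genes depended on how many UMIs stood behind them. The 538 higher and 540 lower genes became 939 and 975 in G1 cells only, 1314 and 1252 in S cells only, 1052 and 1166 in G2M cells only, 304 and 255 with at least 20 CPM, 1891 and 2096 with at least 10 UMIs over both groups, and 96 and 108 at 1.5-fold. Lower genes numbered 349 against cells with 4 or 5 ETV1 UMIs and 837 when cells were thinned and regrouped by the thinned ETV1 count. The cells differ between these settings, and fewer cells give wider counting error.

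In S cells only, the direction turned for the kallikrein list (median log2 ratio -0.14) and for EDEM1 (ratio 1.18), BMPR1B (0.863), CCNA2 (1.1005), SYT4 (0.993), KLK2 (0.869) and SAT1 (1.04). In G2M cells it turned for MSH6 (1.02) and, relative to the median gene, RFC5 (0.971), and in G1 cells for HIST1H3B (0.896). Against cells with 4 or 5 ETV1 UMIs it turned for TMEFF2 (1.04), EDEM1 (1.02) and HPGD (0.981), in thinned cells for CCNA2 (1.02) and CREB3L2 (1.04), and without RALYL-holding cells for TMEFF2 (1.13) and BCHE (1.04). The cause was not tested.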

Other observations

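TMEFF2, a transmembrane proteoglycan gene, stood at 142 CPM in cells with 0, 197 CPM in cells with 2 or 3 and 139 CPM in cells with 6 or more ETV1 UMIs. PEG3, an imprinted zinc finger gene, stood at 68.0, 155 and 260.4 CPM in the same groups, and was 1.68-fold higher in the upper group (1.56 to 1.81) and 1.248-fold higher without cells holding a RALYL UMI. MT1G, a metallothionein gene, stood at 87.8, 201 and 192 CPM in the same groups. The ratio between the last groups was 0.957 (0.889 to 1.03), but it differed by phase. It was 0.948 in G1, 1.5006 in S and 0.671 in G2M cells. Of the phases, MT1X (0.947, 1.45 and 0.628) and MT2A (0.684, 1.57 and 0.602) were likewise above 1 in S cells only. These phase values have no interval and are not among the turns counted above. Their cause was not tested.

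MMP12, a macrophage metalloprotease gene named after its values were seen, had 85 UMIs in the cells with 2 or 3 ETV1 UMIs and 0 in the cells with 6 or more. These are sums over cells, and how many cells held the 85 UMIs is not given here.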
